A study of Mus musculus with 6 samples.

Results

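Arterial-like endothelial cells are the cells of this single-cell RNA study that carried RNA of arterial genes, and 338 of them were found among 2069 endothelial cells and 54911 cells in all. The members were chosen by the measured counts themselves. Barcodes entered with 500 or more UMIs (unique molecular identifiers, each counting 1 captured RNA molecule), 300 or more detected genes and a mitochondrial share of up to 20%. A cell was called endothelial when at least 3 of the 8 genes Pecam1, Cdh5, Kdr, Flt1, Cldn5, Egfl7, Emcn and Tie1 had a UMI and the leukocyte genes Ptprc and Tyrobp together had fewer than 5 UMIs. It was called arterial-like when at least 2 of the 5 genes Gja4, Gja5, Hey1, Sema3g and Bmx had a UMI, and more of these 5 than of the 5 tip genes (Esm1, Apln, Angpt2, Kcne3, Pgf) or of the 5 venous genes (Ackr1, Selp, Vwf, Nr2f2, Sele). The same count over the other gene sets gave 662 venous-like and 285 tip-like cells, and 784 endothelial cells were left unassigned.

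The cells came from pancreatic tumours of 6 KPC mice, all of the genotype KrasLSL.G12D/+; P53LSL.R172H/+; Pdx1-Cre, a model in which Pdx1-Cre switches on both mutant alleles in the pancreatic epithelial lineage. In the IPI-926 group, 3 mice received IPI-926, which blocks Smoothened, the membrane protein that passes the Hedgehog signal into the cell, at 40 mg/kg by daily oral gavage for 2 days. The 3 mice of the vehicle group received the carrier, hydroxypropyl-beta-cyclodextrin, for 2 days. Each tumour was taken 2 hours after the last dose, digested with enzymes at 37 °C for 42 min and made into 1 droplet library, and the labels give neither age, sex nor a pairing of the mice.

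Arteries, capillaries and veins are lined by endothelial cells with different gene programmes. In arterial endothelium, VEGF signalling and blood flow raise Notch ligands and receptors, Notch signalling acts through the DNA-binding protein RBPJ to switch on Hey genes, and the transcription factor Sox17 acts alongside. Arterial cells are known for the membrane ligand ephrin-B2, for the gap junction connexins 37 and 40 (Gja4 and Gja5) that couple neighbouring cells, for low cell division and for the elastic fibre proteins of the arterial wall.

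Per library, the arterial-like cells numbered 10, 8 and 50 in IPI-926 libraries 1, 2 and 3 and 63, 22 and 185 in vehicle libraries 1, 2 and 3. Their summed counts came to 2281111 UMIs. The median depth was 4435.5 UMIs per arterial-like cell, against 6554 in venous-like, 15401 in tip-like and 5059 in unassigned cells. The libraries held between 100810942 and 174929328 UMIs and between 6613 and 16426 kept cells, and any pair of libraries shared between 14 and 59 cell barcodes. IPI-926 library 3 stood apart in fibroblast, interferon and MHC genes of these cells, as given beside the results it touches. Levels are given as counts per 1000000 UMIs of the summed cells (CPM). In such sums, fewer cells carrying a gene and less RNA per cell cannot be told apart.

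The 5 arterial genes of the rule chose the cells, so their values are a description with no test. Gja4 (mouse build GRCm38, chr4:127311421-127314039, minus strand, connexin 37) had a UMI in 309 of the 338 cells. Sema3g (chr14:31217860-31230352, a secreted class 3 semaphorin) had one in 237, Hey1 (chr3:8663359-8667256, a Notch target repressor) in 202, Gja5 (chr3:96904693-97077416, connexin 40) in 137 and Bmx (chrX:164192842-164258193, a Tec family kinase) in 128. The pair found most often was Gja4 with Sema3g, in 213 cells, and the pair found least often was Hey1 with Bmx, in 67 cells.

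Gja4 stood at 442, 914 and 651 CPM in the arterial-like cells of IPI-926 libraries 1, 2 and 3 and at 1166, 559 and 908 CPM in those of vehicle libraries 1, 2 and 3. Gja5 stood at 148, 692 and 437 CPM in IPI-926 libraries and at 232, 365 and 206 CPM in vehicle libraries. The treatment groups overlapped for both connexins. In every library, Gja4 in arterial-like cells was above its level in the library's venous-like, tip-like and unassigned cells, where it ranged from 5.43 to 100.3 CPM, a difference the rule sets.

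The classes differed in depth, so the share of cells with a UMI was also taken with every cell thinned to 2000 UMIs. This left out cells shallower than that and kept the classes set before thinning. Free RNA can give a UMI to a cell that does not express a gene, and thinning does not remove it. Immune cells were taken as the background for it. At this depth Gja4 was seen in 75.7% of 308 arterial-like cells, 3.37% of 624 venous-like cells, 1.09% of 276 tip-like cells and 10.1% of 632 unassigned cells. In 17700 immune cells, which should lack it, the share was 0.05%. Before thinning, the Gja4 shares were 91.4% in arterial-like cells at a median of 4435.5 UMIs and 0.22% in immune cells at a median of 5757 UMIs. Efnb2, which encodes ephrin-B2 and was not used by the rule, was seen in 54.6% of thinned arterial-like cells, against 10.7% of venous-like, 10.5% of tip-like, 18.5% of unassigned and 2.00% of immune cells. Sox17 was seen in 42.2% of thinned arterial-like cells, against 10.3% of venous-like, 11.96% of tip-like and 12.03% of unassigned cells and 0.06% in immune cells.

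The cells were not uniform in how many of the 5 arterial genes they showed. Exactly 2 were detected in 128 cells, 3 in 115 cells, 4 in 63 cells and all 5 in 32 cells. The share of arterial-like cells with at least 3 was 40.0%, 87.5% and 60.0% in IPI-926 libraries 1, 2 and 3 and 58.7%, 77.3% and 62.2% in vehicle libraries 1, 2 and 3, and the groups overlapped. Cells with all 5 genes were deeper, at a median of 8925 UMIs against 3939 UMIs in cells with exactly 2, and the part of depth in this number was not tested.

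CPM levels of several genes outside the rule differed along this number, which is a description since detection in the same cells sorted them. Fbln5, an elastic fibre protein, stood at 180, 420, 868 and 1054 CPM in cells with 2, 3, 4 and 5 arterial genes. Eln, which encodes elastin, stood at 63.3, 166, 338 and 317 CPM over the same 4 groups. Stmn2, a microtubule regulator, stood at 301, 654, 1201 and 998 CPM. Each of these 3 genes was lowest in cells with 2 arterial genes in the pooled cells. Within single libraries, Fbln5 and Stmn2 were higher in cells with 3 or more arterial genes than in cells with 2 in all 6, and Eln in all but vehicle library 2, although the groups of 2 held 6, 1 and 20 cells in IPI-926 libraries and 26, 5 and 70 cells in vehicle libraries. The Notch ligand Jag1 stood at 131, 204, 354 and 380 CPM. Cxcl12, the chemokine ligand of Cxcr4, stood at 949, 984, 1165 and 737 CPM, with no single direction.

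**Figure D1:**
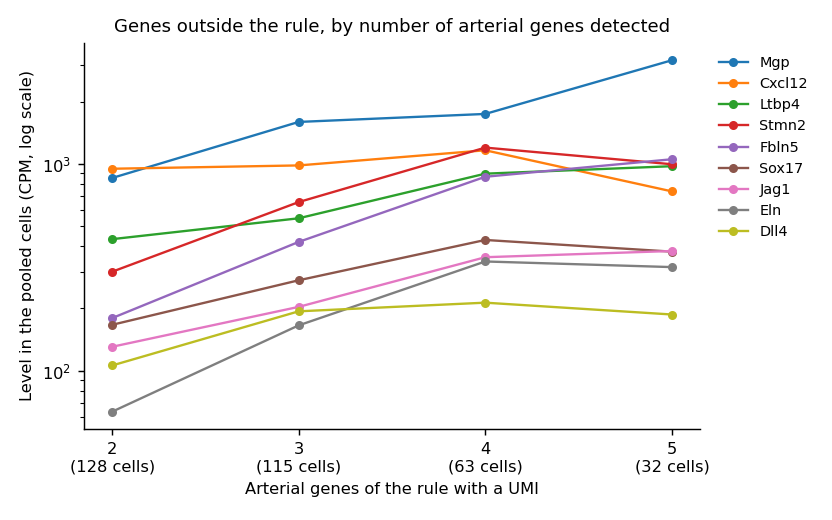
Level (CPM, log axis) of 9 genes outside the rule in arterial-like cells pooled over libraries, by how many of the 5 arterial genes had a UMI (128, 115, 63 and 32 cells). Each point is 1 pooled group with no replicate error; Fbln5 lies at 180 CPM in cells with 2 genes and 1054 CPM in cells with 5, while Cxcl12 lies between 737 and 1165 CPM.

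Just inside the rule were 107 cells with 2 arterial genes and 1 gene of the better-detected other set. Just outside were 49 cells with 2 arterial genes and 2 of another set, and 38 cells with 1 arterial gene and none of the others. Sox17 stood at 142 CPM in the cells just inside, against 60.6 CPM in those with 2 of another set and 138 CPM in those with 1 arterial gene and none of the others. Efnb2 stood at 240.2 CPM just inside, against 206 and 253 CPM in the same 2 outside groups. Neither gene separated the cells just inside from both groups outside.

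A group of 10 arterial-like cells carried at least 3 of 6 markers of lymphatic endothelium (Prox1, Lyve1, Pdpn, Ccl21a, Mmrn1, Reln). There was 1 such cell in each of the 3 IPI-926 libraries, and there were 4, 2 and 1 in vehicle libraries 1, 2 and 3. Gja4 was detected in all 10, Bmx in 7 and Hey1 in 4, whereas Gja5 and Sema3g were detected in 0. They held 0 UMIs of Sox17, Stmn2, Dll4 and Notch4. Mmrn1 was detected in 10 of them, Prox1, the factor that defines lymphatic identity, in 9 and Reln in 8. Ccl21a, a lymphatic chemokine, stood at 10552 CPM in these cells and at 0 in the other 328. By these markers the label arterial goes against the data for these 10 cells.

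RNA of other cell types was present as well. In 93 of the 338 arterial-like cells at least 3 markers of 1 non-endothelial class were detected, of the ductal class in 67 cells, of the fibroblast class in 32, of which 21 were in IPI-926 library 3, and of the pericyte and smooth muscle class in 10. The summed level of 7 fibroblast markers was 95.4, 98.8 and 5196 CPM in arterial-like cells of IPI-926 libraries 1, 2 and 3, against 207, 194 and 465 CPM in vehicle libraries. The summed level of 7 ductal markers was 69.4, 173 and 1026 CPM in IPI-926 libraries and 2053, 392 and 2103 CPM in vehicle libraries. The summed level of 7 T and B cell markers was at most 4.46 CPM in any library. A doublet score called 21 of the 338 cells, 16 of them in vehicle library 3.

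Of the endothelial cells, arterial-like cells made up 5.26% (95% exact binomial interval 2.55 to 9.47), 7.69% (3.38 to 14.6) and 10.97% (8.25 to 14.2) in IPI-926 libraries 1, 2 and 3. In vehicle libraries 1, 2 and 3 they made up 19.1% (14.99 to 23.8), 7.05% (4.47 to 10.5) and 27.3% (24.0 to 30.9). Vehicle libraries 1 and 3 lay above all IPI-926 libraries, and vehicle library 2 lay between IPI-926 libraries 1 and 2, so the groups overlapped. The mean share was 7.97% ± 2.86 in IPI-926 tumours and 17.8% ± 10.2 in vehicle tumours (SD, n = 3 each), a difference of -9.85 percentage points with a two-sided exact permutation p of 0.3. The smallest p that 3 against 3 libraries allow is 0.1.

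With endothelial cells thinned to 2000 UMIs and the rule applied again, the mean share was 7.49% ± 3.45 in IPI-926 tumours and 14.4% ± 9.81 in vehicle tumours (SD, n = 3 each, exact permutation p = 0.3). Without vehicle library 3, the mean difference was -5.10 points, and without vehicle library 2 it was -15.2 points. As a share of all kept cells, arterial-like cells were 0.124%, 0.121% and 0.304% in IPI-926 libraries and 0.891%, 0.235% and 2.5% in vehicle libraries. The means were 0.183% ± 0.105 in IPI-926 tumours and 1.21% ± 1.17 in vehicle tumours (SD), with an exact permutation p of 0.2 for the difference of -1.03 points (n = 3 each), which was -0.38 points without vehicle library 3. Dissociation and capture also set such shares, and their part was not tested.

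**Figure D2:**
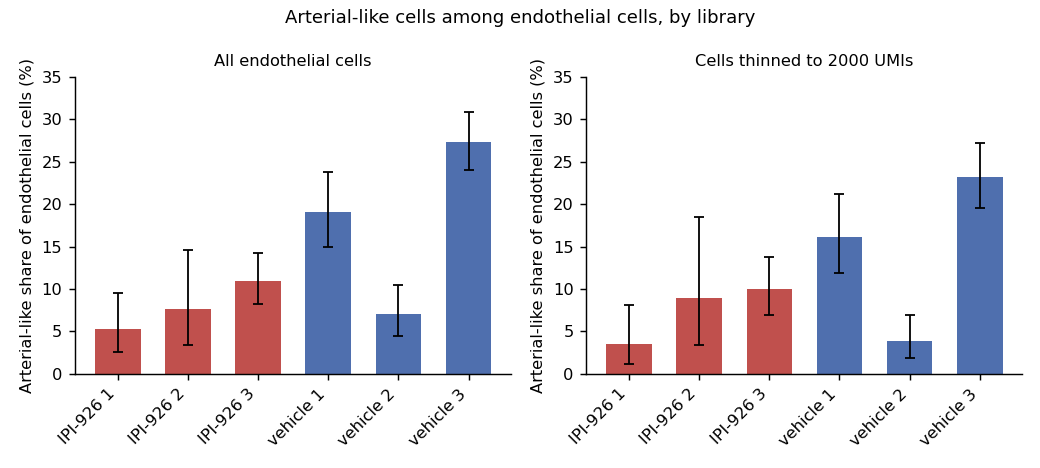
Share of endothelial cells called arterial-like (%, from 0) in each library, with all cells (left) and with cells thinned to 2000 UMIs (right); bars are 1 library each and whiskers are 95% exact binomial intervals, which cover counting error only. The IPI-926 libraries lie at 5.26 to 10.97% and the vehicle libraries at 7.05 to 27.3% with all cells.

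Arterial-like cells were next set against the other endothelial classes of the same tumours, gene by gene. Counts were summed per library and class, sums of fewer than 10 cells were left out (the arterial-like sum of IPI-926 library 2, with 8 cells), and edgeR's quasi-likelihood test was run with the library as a block over 10429 genes. The 25 genes of the rule were left out of every count. The classes were cut from the counts of the same cells, so a call says that a gene outside the rule went with the rule's genes beyond the spread between libraries, and is no independent test of the class.

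Against venous-like cells, 287 genes were higher in arterial-like cells and 248 lower at a Benjamini-Hochberg adjusted p under 0.05, and 1944 genes had an unadjusted p under 0.05. These calls are 5.13% of the genes tested, 2.75% higher and 2.38% lower. Of 26 arterial genes that the rule did not use, 25 were tested, 17 were called higher and 0 lower, and all 25 had a positive log2 fold change. The list's median log2 fold change was 2.15, beside -0.07 over all genes tested. This list, like the other lists, was chosen with earlier results of these data known, so its counts and median are no independent test.

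Efnb2 (chr8:8617434-8661242, minus strand), the arterial ephrin ligand, stood at 217, 346 and 364 CPM in arterial-like cells of IPI-926 libraries 1, 2 and 3 and at 333, 729 and 394 CPM in those of vehicle libraries 1, 2 and 3. In venous-like cells it ranged from 39.1 to 112 CPM. Every arterial-like value lay above every venous-like value, and the log2 fold change was 2.55 (SE 0.25, edgeR adjusted p = 1.70e-06).

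Sox17 (chr1:4490931-4497354, minus strand), a transcription factor of arterial identity, stood at 139, 370.5 and 350.3 CPM in arterial-like cells of IPI-926 libraries and at 310.5, 111 and 289 CPM in those of vehicle libraries. In venous-like cells it ranged from 28.0 to 57.0 CPM, below all 6 arterial-like values. The log2 fold change was 2.48 (SE 0.31, edgeR adjusted p = 4.77e-05). Cxcl12 stood at 425, 618 and 1352 CPM in arterial-like cells of IPI-926 libraries and at 1227, 392 and 903 CPM in those of vehicle libraries. Its venous-like values averaged 77.4 CPM, and the log2 fold change was 3.17 (SE 0.47). Its receptor gene Cxcr4, which tip cells also express, averaged 56.9 ± 43.5 CPM in arterial-like and 5.13 ± 2.76 CPM in venous-like cells (SD over 6 libraries). The Cxcr4 log2 fold change was 3.601 (SE 0.36), although in IPI-926 library 2 its arterial-like sum held 0 UMIs.

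Stmn2 stood at 234, 988 and 634 CPM in arterial-like cells of IPI-926 libraries and at 609, 236 and 878 CPM in those of vehicle libraries. Its venous-like values ran up to 97.2 CPM. All 6 arterial-like values were higher (log2 fold change 3.25, SE 0.76, edgeR adjusted p = 0.0213). The lymphatic growth factor gene Vegfc averaged 110.0 ± 36.0 CPM in arterial-like cells, against 18.0 ± 5.16 CPM in venous-like cells (SD over 6 libraries, log2 fold change 2.44). Unc5b, a netrin receptor, Ltbp4, which binds latent TGF-beta and elastic fibres, and Edn1, which encodes the vasoconstrictor endothelin-1, were also higher, by log2 2.46, 2.16 and 1.17. Fbln5, Mgp and Eln, matrix genes of the same list, did not pass. Fbln5 averaged 564 ± 489 CPM in arterial-like and 116 ± 63.3 CPM in venous-like cells (SD over 6 libraries, log2 fold change 1.52, edgeR adjusted p = 0.0924), with the IPI-926 library 2 value at 1494 CPM. Mgp, an inhibitor of calcification, and Eln had log2 fold changes of 1.90 and 0.86. Without the cells that carried 3 markers of another class, Fbln5, Mgp, Eln and Crip1 passed as well. Of 21 listed genes tested 19 were called higher, beside 7.51% of the 6207 genes tested in that fit. With 9 and 6 arterial-like cells left, IPI-926 libraries 1 and 2 gave no arterial-like sum in this setting. The set of libraries thus changed along with the cells, in this and every other class contrast given without these cells.

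Of 18 Notch pathway genes 16 were tested against venous-like cells, 5 were higher and 0 lower, with a median log2 fold change of 0.17. The 5 were ligands and receptors. The ligand Dll4 (chr2:119325784-119335962) stood at 86.7, 173 and 156 CPM in arterial-like cells of IPI-926 libraries and at 148, 309 and 157 CPM in those of vehicle libraries. Its venous-like values ranged from 19.2 to 44.5 CPM, below every arterial-like value (log2 fold change 2.57, SE 0.21, edgeR adjusted p = 1.17e-07). The ligands Jag1 and Jag2 were higher by log2 2.15 and 2.03, and the receptors Notch4 and Notch1 by log2 2.16 and 0.98. Hes1, a Notch target that many other signals also reach, had a log2 fold change of 0.27 (SE 0.19) and did not pass.

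**Figure D3:**
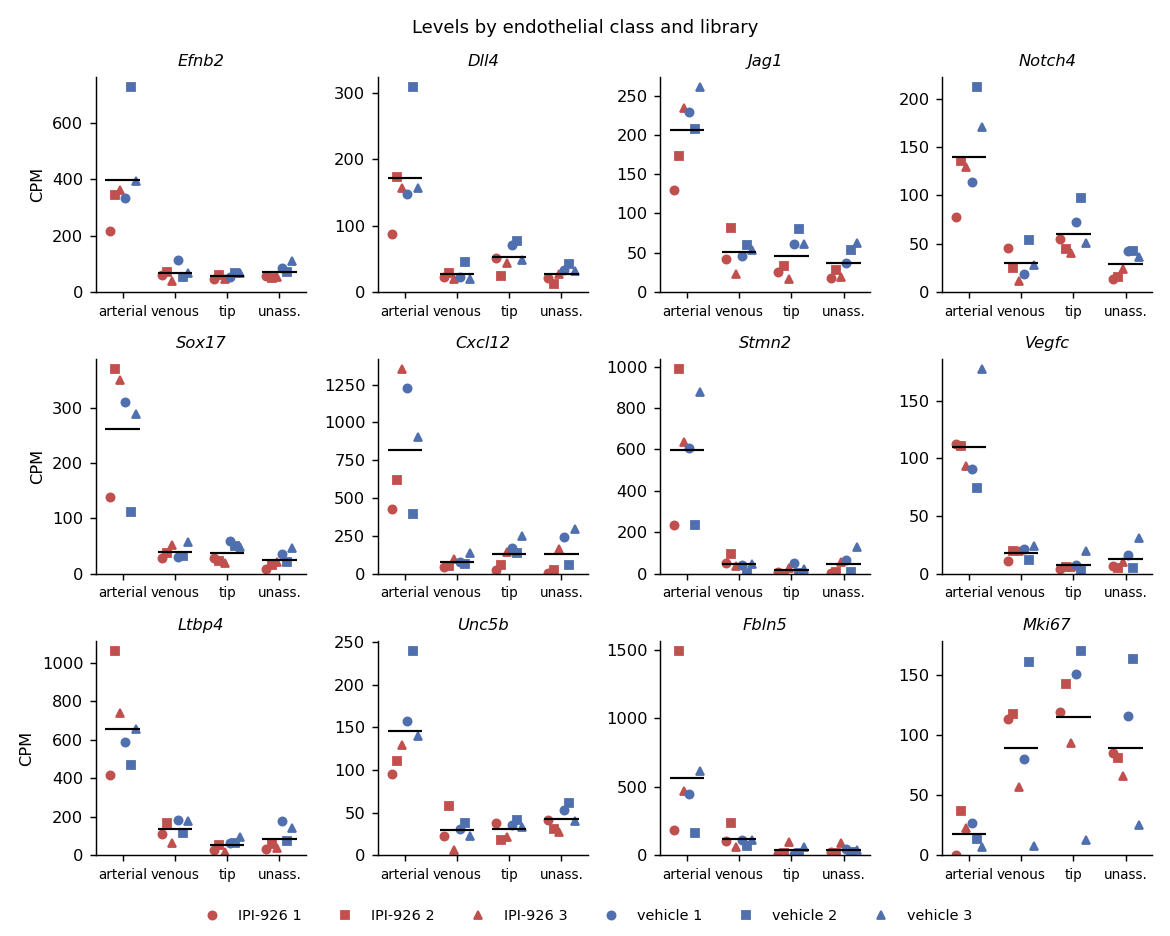
Level (CPM, linear axes from 0) of 12 genes outside the rule in each endothelial class and library; each symbol is 1 library (red IPI-926, blue vehicle) and the line is the mean of 6 libraries. Efnb2 lies at 217 to 729 CPM in arterial-like cells and at 39.1 to 112 CPM in venous-like cells, while Mki67 is at most 37.1 CPM in arterial-like cells.

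The promoters of these genes are shown because Notch signalling reaches DNA through RBPJ, whose core motif TGGGAA was searched on both strands in the 300 bases from 250 before to 50 after each start, in RefSeq sequence of build GRCm38.p6. Capitals mark the motif, read TGGGAA or, on the other strand, TTCCCA. Shown are Gja4, the rule gene found in most cells, as an example without the motif, and Sema3g, Bmx and Cxcl12 as examples chosen because they hold it, each as name, place and sequence, 5′ to 3′ on the gene's strand.
Gja4, chr4:127313990-127314289, minus strand: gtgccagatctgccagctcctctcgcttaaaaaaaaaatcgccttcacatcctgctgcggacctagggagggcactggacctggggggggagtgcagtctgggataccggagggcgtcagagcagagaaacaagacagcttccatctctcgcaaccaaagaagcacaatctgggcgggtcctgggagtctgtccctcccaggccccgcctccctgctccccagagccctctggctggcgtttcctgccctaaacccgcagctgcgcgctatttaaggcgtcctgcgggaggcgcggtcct
Sema3g, chr14:31217623-31217922, plus strand: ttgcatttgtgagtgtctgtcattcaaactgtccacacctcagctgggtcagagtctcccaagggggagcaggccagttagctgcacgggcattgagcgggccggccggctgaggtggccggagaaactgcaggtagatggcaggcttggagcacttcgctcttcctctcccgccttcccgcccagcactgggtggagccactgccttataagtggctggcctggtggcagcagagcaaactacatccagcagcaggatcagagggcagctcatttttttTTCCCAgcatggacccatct
Bmx, chrX:164258144-164258443, minus strand: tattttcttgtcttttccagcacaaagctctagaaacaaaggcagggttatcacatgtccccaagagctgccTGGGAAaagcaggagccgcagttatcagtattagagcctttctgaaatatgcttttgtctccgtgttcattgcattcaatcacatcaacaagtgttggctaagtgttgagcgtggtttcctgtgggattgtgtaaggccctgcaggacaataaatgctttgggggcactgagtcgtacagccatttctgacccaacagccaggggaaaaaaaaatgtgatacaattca
Cxcl12, chr6:117168285-117168584, plus strand: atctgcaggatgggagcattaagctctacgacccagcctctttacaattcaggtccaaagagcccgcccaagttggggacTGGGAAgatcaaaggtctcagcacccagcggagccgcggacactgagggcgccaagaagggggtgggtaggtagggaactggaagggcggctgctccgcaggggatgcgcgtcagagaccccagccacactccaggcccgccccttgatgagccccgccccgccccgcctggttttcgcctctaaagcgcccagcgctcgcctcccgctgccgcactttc
Counted from the start, with bases before it negative, the motif begins at base -178 in Bmx, at -170 in Cxcl12 and at 31 in Sema3g, and it is not in the Gja4 window, nor in those of Gja5, Efnb2, Dll4, Jag1, Jag2, Notch1 and Notch4. Of 31 arterial genes, the 5 of the rule included, 23 had promoter sequence available, with 33 promoters. Hey1 and Sox17 were not among the 23 and so were not searched. Of the 33 promoters 9 held the motif (27.3%), beside 25.6% of all 32851 promoters. The share in arterial genes was thus near that of all promoters, and a match is a string of letters, not a binding site.

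Other groups differed between arterial-like and venous-like cells. Of 13 TGF-beta and BMP response genes, all tested, 6 were higher and 0 lower (median log2 fold change 0.61). Smad6, an inhibitory Smad, averaged 46.7 CPM in arterial-like cells, against 6.67 CPM in venous-like cells (log2 fold change 2.75, SE 0.45). Smad7, another inhibitory Smad, Acvrl1, which encodes the BMP receptor ALK1, and Id1, a BMP target, were higher by log2 1.10, 1.09 and 0.95. Of 15 vasoactive and barrier genes 4 were higher and 1 lower, among them Cdh13, which encodes T-cadherin, by log2 1.49, and Ace, which encodes angiotensin-converting enzyme, by log2 1.15. Ptgs1, which encodes cyclooxygenase 1, was lower by log2 -2.495.

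Of 16 DNA replication and mitosis genes 11 were lower and 0 higher in arterial-like cells (median log2 fold change -1.40). Mki67, the proliferation marker, was at 0, 37.1 and 22.3 CPM in arterial-like cells of IPI-926 libraries and at 27.1, 13.9 and 6.90 CPM in those of vehicle libraries. In venous-like cells it was at 113, 117 and 56.5 CPM in IPI-926 libraries and at 80.3, 161 and 7.36 CPM in vehicle libraries. It was lower in arterial-like cells of every library, with vehicle library 3 nearly level (log2 fold change -2.03, SE 0.37, edgeR adjusted p = 0.00233). Top2a, which unwinds DNA, and Tyms, which makes thymidylate, were lower by log2 -1.58 and -1.17. Without cells that carried 3 markers of another class, Mki67 and Tyms still passed and Top2a did not (edgeR adjusted p = 0.126).

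By size of change, the genes outside the rule that stood highest over venous-like cells were led by Nebl, an actin-binding protein in the arterial list, at 50.9 ± 32.2 CPM in arterial-like cells, against 0.58 ± 0.78 CPM in venous-like cells (SD over 6 libraries, log2 fold change 5.77). St8sia6, a sialyltransferase, averaged 122 CPM in arterial-like and 7.18 CPM in venous-like cells, and Depp1, a FOXO target, averaged 112 CPM in arterial-like and 6.37 CPM in venous-like cells. Rbp7, a retinol-binding protein of endothelium, averaged 269 CPM in arterial-like and 21.4 CPM in venous-like cells. Ptprr, Syt11 and Smpdl3a followed with log2 fold changes of 3.30, 2.91 and 2.90. All of them were higher in 6 of 6 libraries.

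The lowest was Madcam1, the venular address molecule for gut-homing lymphocytes, at 2.68 ± 5.54 CPM in arterial-like cells, against 194 ± 169 CPM in venous-like cells (SD over 6 libraries, log2 fold change -6.66). Lhx6, Cxcl10, Tgfbi, Pcdh7, Ptgs1 and Meox1 had log2 fold changes between -3.28 and -2.26. Cxcl10 encodes an interferon-induced chemokine and Meox1 a homeobox factor of endothelium and mesoderm. Nrp2, a semaphorin and VEGF-C receptor of veins and lymphatics, was lower by log2 -1.47, and its relative Nrp1 was higher by log2 0.82. Of 14 venous genes outside the rule, 0 were higher and 2 lower, with a median log2 fold change of -0.65.

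**Figure D4:**
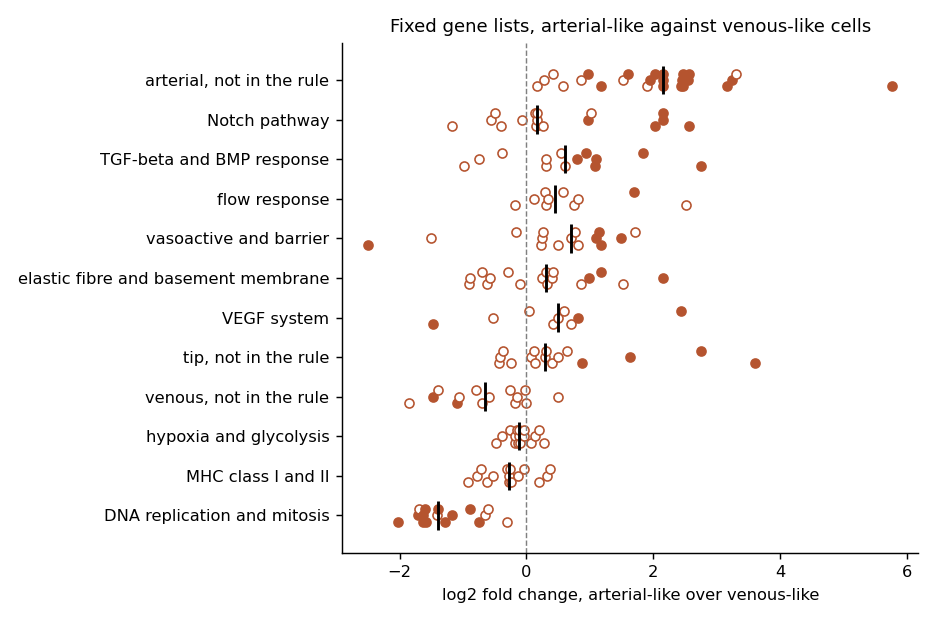
Log2 fold change of arterial-like over venous-like cells for each tested gene of 12 lists; each circle is 1 gene, filled where the edgeR adjusted p is under 0.05, and the black bar is the list's median. All 25 tested arterial genes outside the rule lie above 0 (median 2.15) and all 16 DNA replication and mitosis genes lie below 0 (median -1.40). The lists were chosen with earlier results of these data known.

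Against tip-like cells, which were far deeper, 1138 genes were higher and 1503 lower in arterial-like cells, 25.3% of the 10429 tested, with 10.9% higher and 14.4% lower. Of the 25 arterial genes tested, 21 were higher and 0 lower (median log2 fold change 2.48). Of 10 flow response genes 8 were higher and 0 lower, with a median of 1.497. Klf2, a flow-induced factor, was higher by log2 1.72 (SE 0.24), Klf4, its relative, by log2 1.26, Nos3, the endothelial nitric oxide synthase, by log2 2.00, and Podxl, a luminal sialomucin, by log2 2.82. Against venous-like cells, 1 of the 10 flow genes passed, Podxl, and Klf2 had a log2 fold change of 0.76 (edgeR adjusted p = 0.0766). Without cells carrying 3 markers of another class, Klf2 and Klf4 passed against venous-like cells too, higher by log2 1.10 and 1.12.

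All 16 DNA replication and mitosis genes were lower in arterial-like than in tip-like cells (median log2 fold change -1.70), and 8 of 16 hypoxia and glycolysis genes were lower (median -0.98). Dll4, which marks both arterial and tip cells, was higher in arterial-like cells by log2 1.47 (SE 0.20). Without cells that carried 3 markers of another class, that difference was 0.52 and did not pass (edgeR adjusted p = 0.0852), and Notch4 did not pass either. In that fit 10 of 15 DNA replication genes and 4 of 12 hypoxia genes tested were lower, beside 8.59% of all 6207 genes tested. The 7 ductal markers had a median log2 fold change of -1.86 in this contrast, and their part in it was not tested.

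Against unassigned endothelial cells, 1349 genes were higher and 1841 lower in arterial-like cells, 30.6% of those tested, with 12.9% higher and 17.7% lower. Of the 25 arterial genes 19 were higher and 1 lower (median log2 fold change 2.41), and all 10 flow response genes were higher. In this contrast 3 of 7 ductal markers were lower (median -2.09) and 3 of 7 fibroblast markers (median -2.00). Without cells carrying 3 markers of another class, 420 of 6207 genes tested were called, in place of 3190 of 10429, and 20 of 21 arterial genes tested were higher, beside 4.29% of all genes in that fit.

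Treatment was compared within arterial-like cells over libraries with at least 10 of them, so IPI-926 libraries 1 and 3 were set against vehicle libraries 1, 2 and 3. The values of IPI-926 library 2 are given although it did not enter the fit. The labels do not say how the mice of a group relate to each other, so p-values measure only the spread between these libraries. Of 6261 genes tested, 6 were higher and 1 lower in IPI-926 tumours at an edgeR adjusted p under 0.05, which is 0.112% of the genes (0.0958% higher and 0.016% lower), and 280 had an unadjusted p under 0.05.

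Arterial genes did not pass in either direction. Of the 25 outside the rule 0 were called, 7 had a positive log2 fold change, and the median was -0.27, beside -0.01 over all genes. Over all genes tested 0.112% were called, so 0 calls among 25 genes say little. In simulated data of the same design, this test recovered 7.5% of changes of log2 1 and 50.7% of changes of log2 2. The 0 calls in this and the other lists thus do not show that their genes were unchanged. Efnb2 averaged 309 ± 80.1 CPM in arterial-like cells of IPI-926 tumours and 486 ± 214 CPM in those of vehicle tumours (SD, n = 3 each), and its log2 fold change in the fit was -0.68 (SE 0.41). Sox17 averaged 287 ± 128 CPM in IPI-926 and 237 ± 110 CPM in vehicle tumours (SD, n = 3 each), with a log2 fold change of 0.13 (SE 0.48). Of 11 tested Notch pathway genes 0 were called, with a median of -0.31. Dll4, Jag2 and Notch4 had log2 fold changes of -0.63, -0.63 and -0.56, each with an SE of at least 0.37.

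The Hedgehog pathway could hardly be read in these cells. Gli1, the transcriptional readout of Hedgehog signalling, held 0 UMIs in all 6 sums, which allows up to 4.65 CPM over the IPI-926 group and 1.83 CPM over the vehicle group. Ptch1, a receptor and feedback target, stood at 34.7, 86.5 and 42.4 CPM in IPI-926 libraries and at 41.9, 46.2 and 24.7 CPM in vehicle libraries, with overlapping groups (log2 fold change 0.23, SE 0.47). Axin2, a WNT feedback gene, held 0, 0 and 0 UMIs in IPI-926 libraries and 2, 1 and 6 UMIs in vehicle libraries. Lef1, a WNT-responsive factor, stood at 8.67, 0 and 8.92 CPM in IPI-926 libraries and at 34.5, 9.23 and 56.2 CPM in vehicle libraries. Its groups did not overlap, but it did not pass (log2 fold change -2.04, SE 0.76, edgeR adjusted p = 0.9995).

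The single gene called lower was Rgs5 (chr1:169655501-169695813), a G protein regulator that marks pericytes. It stood at 0, 0 and 2.23 CPM in arterial-like cells of IPI-926 libraries and at 357, 152 and 208 CPM in those of vehicle libraries. The groups did not overlap, as in 6.98% of all genes with IPI-926 below and 3.98% with IPI-926 above, and the log2 fold change was -6.86 (SE 0.74, edgeR adjusted p = 0.00381). Only 24 of the 338 cells carried it, and 17 of these 24 had at least 3 markers of another class and held 369 of its 390 UMIs. Rgs5 is itself 1 of those markers, and both counts were the same with it left out of them. In vehicle library 1, 1 cell held 120 of 145 UMIs, and in vehicle library 2 a single cell held all 33. Without cells carrying 3 markers of another class the gene had too few counts to be tested, and with at least 1000 UMIs and at most 10% mitochondrial UMIs per cell its adjusted p was 0.99. The 8 pericyte and smooth muscle markers summed to 174, 482 and 312 CPM in IPI-926 libraries and to 983, 448 and 307 CPM in vehicle libraries. Without Rgs5 the other 7 summed to 174, 482 and 310.1 CPM in IPI-926 libraries and to 626, 296 and 98.6 CPM in vehicle libraries, with overlapping groups.

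Ubd (chr17:37193892-37196095), an interferon- and TNF-induced ubiquitin-like modifier, stood at 208, 0 and 279 CPM in IPI-926 libraries and held 0 UMIs in all vehicle libraries. Over the summed groups, 231 CPM in IPI-926 cells was at least 126-fold higher than the 1.83 CPM that 3 counts over the vehicle group would give. It was carried by 1 of 10 cells in IPI-926 library 1, which held all 24 UMIs there, and by 17 of 50 cells in IPI-926 library 3. The edgeR adjusted p was 8.65e-04.

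H2-Q7 (chr17:35439155-35443773), a class I-like MHC gene, stood at 269, 61.8 and 964 CPM in IPI-926 libraries and at 17.3, 4.62 and 11.8 CPM in vehicle libraries. The groups did not overlap (log2 fold change 5.72, SE 0.62, edgeR adjusted p = 0.0239). Near-identical copies such as H2-Q6 share reads with it, so the gene is uncertain. It was detected in 3 of 10, 4 of 8 and 46 of 50 arterial-like cells of IPI-926 libraries 1, 2 and 3, against 6 of 63, 1 of 22 and 10 of 185 cells of vehicle libraries 1, 2 and 3. AW112010, an interferon-induced transcript, stood at 165, 61.8 and 393 CPM in IPI-926 libraries and at 46.8, 36.9 and 54.2 CPM in vehicle libraries (log2 fold change 2.65, SE 0.38, edgeR adjusted p = 0.0292). Both were highest in IPI-926 library 3. In IPI-926 library 1, a single cell held 24 of 31 H2-Q7 UMIs and 12 of 19 AW112010 UMIs.

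Ube2c (chr2:164769898-164778822), a ubiquitin-conjugating enzyme of mitosis, stood at 130.1, 12.4 and 147 CPM in IPI-926 libraries and at 7.39, 4.62 and 5.92 CPM in vehicle libraries (log2 fold change 4.51, SE 0.41, edgeR adjusted p = 9.51e-04). A single cell held all 15 of its UMIs in IPI-926 library 1, and 1 cell held 54 of 66 in library 3. Ifi27l2a, an interferon-induced gene, stood at 243, 161 and 170 CPM in IPI-926 libraries and at 32.0, 46.2 and 18.7 CPM in vehicle libraries (log2 fold change 2.82, edgeR adjusted p = 0.0402). In IPI-926 libraries 1 and 2 all its UMIs, 28 and 13, lay in 1 cell each, and without cells carrying 3 markers of another class its log2 fold change was 0.16. Mt2, a metallothionein, stood at 78.1, 0 and 95.9 CPM in IPI-926 libraries and at 17.3, 13.9 and 16.8 CPM in vehicle libraries (log2 fold change 2.48, edgeR adjusted p = 0.0452), with overlapping groups, and 40 of its 43 UMIs in IPI-926 library 3 lay in cells with at least 3 markers of another class.

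Calls changed when single libraries were left out or added. Without IPI-926 library 3, IPI-926 library 1 with 10 cells was the only treated library, and its spread was assumed to be like that of the others. The edgeR adjusted p was then 0.18 for Rgs5, 0.18 for Ube2c, 0.44 for AW112010, 0.083 for Ifi27l2a and 0.61 for Mt2, with log2 fold changes of -9.74, 4.41, 1.84, 3.11 and 2.30 in that order of genes. Ubd and H2-Q7 still passed, in a library where 1 cell held all or most of their UMIs. H2-Q7 had an edgeR adjusted p of 0.13 to 0.19 without any 1 of the vehicle libraries. With sums of at least 5 cells, the setting in which IPI-926 library 2 entered the fit, edgeR called 0 genes higher and 1 lower of 4876 tested, and 209 had an unadjusted p under 0.05. In that fit Rgs5 passed, H2-Q7, AW112010 and Ifi27l2a did not (edgeR adjusted p = 0.724, 0.461 and 0.054), and Ubd, Ube2c and Mt2 were not tested.

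**Figure D5:**
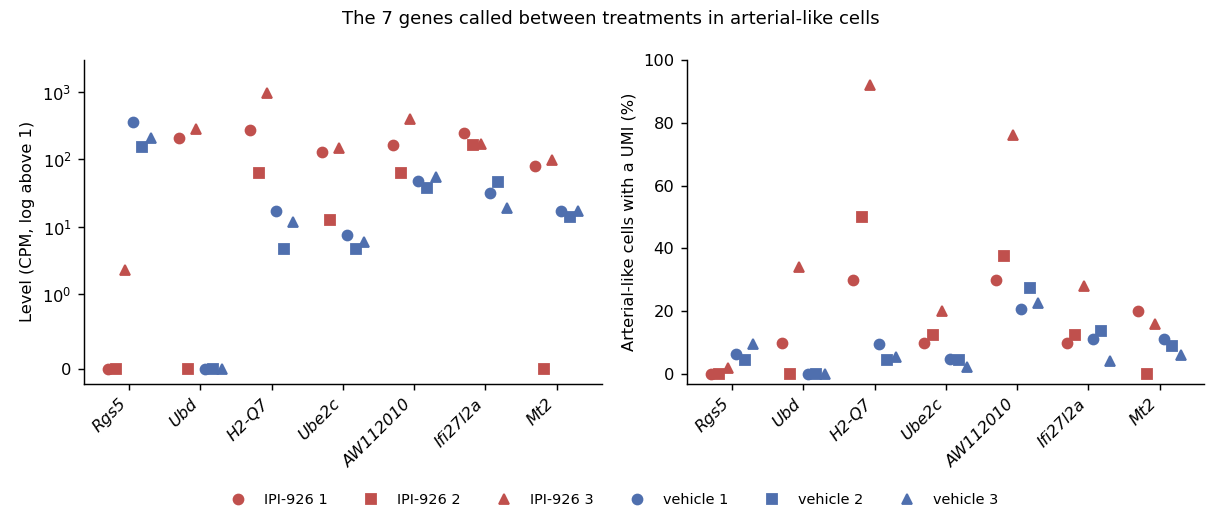
Level (CPM, log scale above 1 and linear below, left) and share of arterial-like cells with a UMI (%, right) for the 7 genes called between treatments; each symbol is 1 library (red IPI-926, blue vehicle), IPI-926 library 2 included although it did not enter the fit. H2-Q7 was detected in 46 of 50 cells of IPI-926 library 3, while Rgs5 lies at 152 to 357 CPM in the vehicle libraries.

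Tested interferon response and MHC genes had positive log2 fold changes throughout, and the summed level of each list was highest in IPI-926 library 3. Single genes could differ, as Ifi27l2a was highest in IPI-926 library 1. Of 21 interferon genes 12 were tested, 1 was called higher (Ifi27l2a), all 12 had a positive log2 fold change, and the median was 2.67. Genes entered the fit by their counts, so interferon genes with counts mainly in IPI-926 libraries could pass the filter. The signs and median of the 12 are therefore partly set by that filter. The summed level of all 21 interferon genes was 833, 556 and 4591 CPM in arterial-like cells of IPI-926 libraries 1, 2 and 3. In those of vehicle libraries it was 429, 508 and 445 CPM. Of 15 MHC class I and II genes 1 was called, and all 15 had a positive log2 fold change (median 2.43). MHC genes entered through the same filter, so their signs and median may be partly set by it too. Their sums were 3643, 2791 and 14760 CPM in IPI-926 libraries and 1592, 3093 and 2040 CPM in vehicle libraries. Without IPI-926 library 3, 5 of 8 tested interferon genes and 6 of 11 tested MHC genes were positive, with medians of 1.07 and 0.06. That library also had the highest sum of fibroblast markers in these cells. Without the cells carrying 3 markers of another class, IPI-926 library 3 was the only treated library in the fit. The median log2 fold change of the 17 interferon genes tested was then 3.32. Genes could enter that fit through their counts in IPI-926 library 3 alone, so this median is no separate support.

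Immediate-early genes did not pass. Of 15 tested, 0 were called and 3 were positive, with a median log2 fold change of -0.60. Fos, an early response transcription factor, stood at 564, 2458 and 506 CPM in IPI-926 libraries and at 1409, 1214 and 1752 CPM in vehicle libraries. IPI-926 library 2, which did not enter the fit, was the highest of all (log2 fold change -1.41, edgeR adjusted p = 0.154). Fosb stood at 191, 889 and 176 CPM in IPI-926 libraries and at 587, 669 and 569 CPM in vehicle libraries, with the same library on top. Sox11, a neural and progenitor transcription factor, held 0 UMIs in all IPI-926 libraries and 37, 5 and 46 UMIs in vehicle libraries, and did not pass (edgeR adjusted p = 0.255).

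Whether the response differed between arterial-like and all other endothelial cells was tested as an interaction in 11995 genes over the same 5 libraries. Of these, 11 had a higher and 6 a lower response in arterial-like cells at an edgeR adjusted p under 0.05, which is 0.142% of the genes (0.0917% higher and 0.05% lower). Among the 26 arterial genes outside the rule, the 18 Notch pathway genes and the 10 tested flow response genes, edgeR called 0. Without the cells carrying 3 markers of another class, in a fit with IPI-926 library 3 as the only treated library, 8 of the 26 arterial genes were called higher, beside 0.207% of the 9641 genes tested. In simulated data of the same design, 26 of 105 calls of this test were false.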

How the data were processed

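Cells of 6 tumours were profiled with 10x Single Cell 3' chemistry, 1 library each. The values are unnormalized UMI counts, as deposited, and came from cellranger 6.1.2 per the file headers. Version 2.1.1 of Cell Ranger and the build mm10 stand in the submitters' processing notes. Of 32285 gene IDs, 32235 were found in GENCODE vM21, from which positions were taken.

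Cells were classed by the rule given at the start. The members, lists and rule were chosen with earlier results of these data known. Doublets were scored against simulated doublets (0.8% per 1000 barcodes) and kept, and were left out in an alternative. Counts were summed per library and class, with sums of at least 10 cells, filtered with filterByExpr and tested with edgeR 4.0.16 (TMM, quasi-likelihood, Benjamini-Hochberg adjusted p) in R 4.3.3. The fits were tested on simulated data. limma 3.58.1 and DESeq2 1.42.0 served as alternatives. Shares were compared in Python 3.11.15 by exact two-sided permutation tests, and 95% exact (Clopper-Pearson) intervals and floors of 3 counts cover counting error only.

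Genes were named by rule. For treatment these were the passing genes and the 5 of smallest p in each direction, for contrasts up to 10 each way by size with at least 50 CPM in the higher class and 1 direction in every fitted library, and beside them fixed arterial, Notch, Hedgehog and WNT genes and up to 4 members of each list.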

Additional observations from a re-analysis of the deposited data

Results flagged for a closer look

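The test of the interaction called 17 of 11995 genes as differing in response to IPI-926 between arterial-like and all other endothelial cells (edgeR, adjusted p under 0.05). In simulated data of the same design, 26 of 105 calls of this test were false. For Tmem100, an arterial BMP9 target, the difference of log2 fold changes was -5.41, with 0, 148 and 11.2 CPM in arterial-like cells of IPI-926 libraries 1, 2 and 3, against 54.2, 13.9 and 93.7 CPM in those of vehicle libraries 1, 2 and 3. IPI-926 library 2, which did not enter the fit, had the highest Tmem100 level in arterial-like cells. In other endothelial cells Tmem100 stood at 2.23, 2.76 and 35.9 CPM in IPI-926 libraries, against 6.99, 2.59 and 3.997 CPM in vehicle libraries. The difference thus also takes in the higher level in other endothelial cells of IPI-926 library 3. For Cela1, an acinar elastase, the difference was 3.88, with 0, 0 and 42.4 CPM in arterial-like cells of IPI-926 libraries and 7.39, 0 and 7.89 CPM in those of vehicle libraries. In other endothelial cells Cela1 stood at 0.41, 5.53 and 12.3 CPM in IPI-926 libraries, against 42.3, 2.43 and 32.7 CPM in vehicle libraries. For Rgs5 the difference was -4.38, and in other endothelial cells Rgs5 stood at 33.8, 155 and 36.5 CPM in IPI-926 libraries, against 234, 227 and 258 CPM in vehicle libraries. With sums thinned to 1 total, the interaction test called 0 of 3096 genes tested by edgeR and 150 had an unadjusted p under 0.05.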

How the results depend on the processing

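Between treatments in arterial-like cells, 7 of 6261 genes tested were called. The count was 158 of 15796 with genes of any count, and 12 with DESeq2 and 11 with limma-voom, both of 6261. It was 1 of 4876 with sums of at least 5 cells, where IPI-926 library 2 entered and Rgs5 was the gene called. Several alternatives left IPI-926 library 3 as the only treated library, whose spread was then assumed to be like that of the others: 124 genes were called with at least 3 arterial genes, 131 without doublets, 36 without cells with 3 markers of another class, 105 without lymphatic-marker cells and 91 with sums of at least 20 cells. Leaving out single libraries gave 3 to 91.

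Against venous-like cells, 535 of 10429 genes tested were called. Without cells with 3 markers of another class this was 825 of 6207, with thinned sums 172 of 2732, and without single libraries 246 to 530. The 2641 calls against tip-like cells were 1093 of 6207 and 810 of 2732 under the same 2 settings, and 1871 to 2453 without single libraries. The 3190 calls against unassigned cells were 420 of 6207 and 985 of 2732, and 2145 to 3020 without single libraries. Class fits without single libraries tested 10175 to 10961 genes. The interaction fits also differed in genes tested, 11995 in the main fit and 3096 with thinned sums. The 17 interaction calls were 46 with any count, 100 with 3 arterial genes, 117 without doublets, 29 without cells with 3 markers of another class, 0 with thinned sums (150 unadjusted), 106 without lymphatic-marker cells, 71 with at least 20 cells, 11 with at least 5, 7 with DESeq2 and 28 to 90 without single libraries. The share difference was -15.2 to -5.10 points of endothelial and -1.51 to -0.38 points of kept cells without single libraries.

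Between treatments, changes that turned sign, none of them called, were 0.28 for Notch1, 0.076 for Jag1 and 0.46 for Cxcr4 without cells with 3 markers of another class. Jag1 was 0.027 with 3 arterial genes, 0.065 without doublets and 0.024 with at least 20 cells, Cxcl12 -0.028 with at least 5 cells, and Cxcr4 0.037 with limma-voom. Without single libraries, the log2 ranges were -0.798 to 0.024 for Jag1 (positive without IPI-926 library 1), -0.74 to 0.57 for Sox17 and -0.94 to 0.71 for Cxcl12 (both lowest without IPI-926 library 3, and -0.15 and -0.18 without vehicle library 2), -1.04 to 0.20 for Cxcr4 and -0.12 to 0.43 for Ptch1. Against tip-like cells without cells with 3 markers of another class, Cxcr4 was -0.27, Clu 0.81 and Crip1 0.70 (called higher). Against unassigned cells in that setting, Ptch1 was -0.22, Meox2 -0.65, Fbln2 2.57 (called higher), Clu 0.14 and Crip1 0.95 (called higher, and called lower at -0.76 with those cells kept), and Fbln2 was 0.13 with 3 arterial genes. Against venous-like cells, Clu ranged from -0.14 (without IPI-926 library 3) to 0.61 without single libraries and was -0.017 without vehicle library 1, and Cdkn1c was -0.018 with at least 20 cells. The causes were not tested.

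Of the values for named genes, 26 lost and 56 gained a call between treatments, 104 and 25 against venous-like, 38 and 4 against tip-like and 62 and 8 against unassigned cells. Rgs5 had an adjusted p of 0.18 without IPI-926 library 3, and H2-Q7 one of 0.13 to 0.19 without single vehicle libraries. The lymphatic-marker and at least 5 cells settings were chosen after seeing the data. No paired analysis was possible because the labels tie no number to a shared litter, batch or day, and the replicate numbers follow accession order. The treatment fit rests on 10 and 50 cells for IPI-926.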
